A study of Mus musculus with 9 samples.

Results

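A set of 8 transcription factor genes of dorsal radial glia was followed across newborn mouse cortex with raised Sonic hedgehog (SHH) signalling. Not all of these genes are confined to dorsal radial glia. They were taken by gene name from the deposited tables: Pax6, Emx1, Emx2, Lhx2, Sox2, Sox3, Sox21 and Nr2e1, which are 8 of the 22496 genes of one table and 8 of the 23624 genes of the other. RNA had been sequenced in bulk from cortex dissected at postnatal day 0, in mice of a mixed C57BL/6J, 129S6 and CD1 background. There were 3 libraries in each of 3 groups. Wild-type littermates were the controls. The same 3 wild-type libraries served for both interventions, and the labels do not say which litters they came from. ShhN IUE denotes brains that received ShhN, the secreted amino-terminal signalling part of SHH, by in utero electroporation, which reaches only some of the cells along the ventricle. The SmoM2 group carried hGFAP-Cre and 1 conditional SmoM2 allele (SmoM2f/+). SmoM2 is Smoothened, the transducer of SHH, in an activated form. Cre was driven by the human GFAP promoter, which is active in radial glia. Cells that descend from them inherit the recombined allele. The labels name no electroporated control that lacked ShhN, so the effects of electroporation and of ShhN cannot be told apart. They also leave unsaid whether replicates were different animals, and p-values therefore measure only the spread between these samples.

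Radial glia are the neural stem cells that line the ventricle of the developing brain. In the dorsal telencephalon they give rise to pyramidal neurons and later to glia and olfactory bulb interneurons, and their identity is held by a small set of transcription factors. Pax6 is a paired-box and homeobox factor that promotes neurogenesis and is also used by olfactory bulb interneuron precursors. Emx1 and Emx2 are homeobox factors of the dorsal telencephalon, and Lhx2 is a LIM-homeobox factor needed for cortical identity. Sox2 and Sox3 are SOXB1 activators that keep progenitors undifferentiated, whereas Sox21 belongs to the related SOXB2 group, which counters them and favours differentiation. Nr2e1, also called Tlx, is an orphan nuclear receptor that maintains neural stem cells. SHH is a ventralising signal of the forebrain: its effectors are the GLI factors, and ventral progenitors use Gsx2, Dlx and Nkx2 factors. Emx1, Lhx2 and the SOX factors are not confined to radial glia. Lhx2, the SOX factors and Nr2e1 are not confined to the dorsal side either. Bulk RNA does not show which cells hold the transcript.

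The stretches just upstream of the start sites of Pax6, Sox2 and Nr2e1 are shown because these 3 genes rose together in ShhN IUE cortex. Each is read 5′ to 3′ on the strand of its gene, from the RefSeq promoter table for GRCm38.p6. The capitals mark every match of the motifs searched.
Pax6, chr2:105668646-105668895, plus strand: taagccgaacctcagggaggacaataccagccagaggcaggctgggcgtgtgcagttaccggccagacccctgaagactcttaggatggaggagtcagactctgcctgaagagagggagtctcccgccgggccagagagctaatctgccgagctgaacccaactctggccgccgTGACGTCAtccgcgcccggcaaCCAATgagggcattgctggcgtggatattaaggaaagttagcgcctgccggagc
Sox2, chr3:34649745-34649994, plus strand: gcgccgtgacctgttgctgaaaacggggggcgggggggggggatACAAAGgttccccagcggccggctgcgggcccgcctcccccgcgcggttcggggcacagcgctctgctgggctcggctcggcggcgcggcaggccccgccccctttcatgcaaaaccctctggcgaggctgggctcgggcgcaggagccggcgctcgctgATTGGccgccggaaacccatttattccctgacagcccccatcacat
Nr2e1, chr10:42583633-42583840, minus strand: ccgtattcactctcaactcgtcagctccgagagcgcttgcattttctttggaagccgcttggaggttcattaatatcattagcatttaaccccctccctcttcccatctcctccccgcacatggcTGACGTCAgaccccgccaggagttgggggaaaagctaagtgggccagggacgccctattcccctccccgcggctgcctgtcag
The RefSeq table held windows of 300 bases, from 250 before to 50 after a start, for 7 of the 8 genes (9 windows), among 32851 windows in all. The 6 motifs were searched on both strands. The GLI motif GACCACCCA was in 0 of the 9 windows and in 0.253% of all windows. The SOX motif ACAAAG was in 3 of 9, against 18.7% of all windows, and the SOX motif ACAATG was in 0 of 9, against 12.6%. The CCAAT box was in 3 of 9, against 37.4%, and the homeodomain motif TAATTA was in 1 of 9, that of Emx2, against 5.29%. The cAMP response element TGACGTCA was in 1.79% of all windows and in 2 of the 9, at 76 bases before the first RefSeq start of Pax6 and 125 bases before the RefSeq start of Nr2e1. The Nr2e1 stretch stops 42 bases short of that start, because those bases lie in a GENCODE exon of Nr2e1. In the Sox2 stretch the capitals are a SOX match and a CCAAT box on the opposite strand (ATTGG). A match is a description of the letters and was not tested as a site.

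The genes lie on 7 chromosomes (GRCm38 coordinates of the deposited tables). Pax6 is at chr2:105668900-105697364 and Lhx2 at chr2:38339281-38369733. Emx1 is at chr6:85187438-85204462, Emx2 at chr19:59458372-59465357 and Sox2 at chr3:34650405-34652461, all on the plus strand like Pax6 and Lhx2. Sox3 (chrX:60891366-60893430), Sox21 (chr14:118233232-118237030) and Nr2e1 (chr10:42561963-42583632) are on the minus strand. Of the 8 genes, 5 overlap another annotated gene. Sox2 lies inside Sox2ot on the same strand, and antisense or opposite-strand genes overlap Pax6 (Pax6os1), Emx2 (Emx2os), Lhx2 (Gm13584 and Gm27197) and Sox21 (Gm4675). The sources used here do not give the strand setting of the counting, so reads in these overlaps cannot be told apart. The overlapping genes other than Sox2ot had 0 to 58 counts in a library.

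Libraries held 15376071 to 19604672 counts in ShhN IUE, 23625702 to 26923127 in SmoM2 and 18610507 to 21694348 in wild type. Each comparison was made within its own table, because the wild-type libraries were deposited in both tables with partly different counts. For Sox2, Sox3, Sox21 and Nr2e1 the wild-type counts were identical in the tables. For Emx1, Emx2 and Lhx2 their sums differed by less than 0.1 on the log2 scale, and for Pax6 they were 962 and 1150. The targets Gli1 and Ptch1, which report GLI activity, rose in ShhN IUE by 2.44 and 2.17 and in SmoM2 by 2.63 and 2.80 on the log2 scale (edgeR quasi-likelihood test, adjusted p of 0.00369, 0.00455, 0.000159 and 0.000136). Without ShhN IUE library 3, where both were highest, Gli1 rose by 1.84 and Ptch1 by 1.62 (adjusted p of 0.00252 and 0.00303). Smo had 84.1, 71.7 and 80.3 CPM in SmoM2 against 20.6, 26.1 and 19.1 in wild type. In ShhN IUE it had 35.4, 41.5 and 49.3 CPM against 20.8, 26.4 and 19.6. Shh itself did not pass in ShhN IUE (adjusted p = 0.0693), with 51 and 52 counts in libraries 1 and 2 and 455 in library 3. Wild-type libraries had 36, 62 and 31 Shh counts. The authors' deposited table marks Shh as up (q = 0.00878). ShhN IUE library 3 stood apart in another respect: the summed level of 6 meningeal genes was 530 CPM there (TMM-scaled counts per 1e+06 counts), against 13.2 and 25.2 in libraries 1 and 2. In wild-type libraries 1, 2 and 3 that sum was 11.2, 352 and 130 CPM, and in SmoM2 libraries 292, 144 and 217. Rises of Pax6, Nr2e1 and Sox2 in ShhN IUE are therefore given with and without library 3. All 8 genes of striatal projection neurons, a neighbouring tissue, fell in both comparisons, where 17.2% and 9.29% of all genes did. Their summed levels were 37.7 to 47.5 CPM in ShhN IUE against 147 to 213 in wild type. In SmoM2 they were 29.1 to 35.4 against 138 to 213.

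In ShhN IUE cortex, Pax6, Nr2e1 and Sox2 rose, by 4.08-fold, 1.81-fold and 1.76-fold, and no factor of the set fell. Emx1, Emx2 and Sox21 stayed within 0.14 of 0 on the log2 scale without passing the test, and Sox3 and Lhx2 were higher in all 3 libraries but did not pass. The count was 3 of 8 risen, where 16.1% of the 16180 genes tested rose, and 0 of 8 fallen, where 17.2% of all genes fell. In either direction 3 of 8 passed, where 33.3% of all genes did. None of the 8 fell at an unadjusted p under 0.05 either, nor with DESeq2 or limma-voom. The median log2 fold change over the 8 was 0.43, and over all genes tested -0.0038. In bulk tissue a change in the share of cells that express a gene and a change in RNA per cell cannot be told apart, here and below.

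Pax6 had 61.8, 74.7 and 63.0 CPM in ShhN IUE libraries 1, 2 and 3 and 17.1, 14.0 and 17.7 CPM in the wild-type libraries. The lowest ShhN IUE library was far above the highest wild-type library. The means were 66.5 ± 7.15 and 16.3 ± 1.98 CPM (SD, n = 3 each), a log2 fold change of 2.03 ± 0.14 (SE) with a 95% interval of 1.70 to 2.35 and an adjusted p of 0.000401. This was the steepest change among the 8 genes in either comparison with wild type. It was 2.08 when ShhN IUE library 3 was left out and 1.93 when wild-type library 2 was, both past the threshold.

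Nr2e1, the stem cell receptor, had 23.9, 30.4 and 30.4 CPM in ShhN IUE libraries 1, 2 and 3, against 12.6, 17.0 and 17.2 CPM in wild type. The groups did not overlap, and library 1 was the lowest in each group. The means were 28.2 ± 3.76 and 15.6 ± 2.64 CPM, a log2 fold change of 0.86 ± 0.17 (interval 0.46 to 1.25, adjusted p = 0.00816). It was 0.81 when ShhN IUE library 3 was left out and 0.92 when wild-type library 2 was, with adjusted p of 0.0220 and 0.0204.

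Sox2 had 88.4, 77.5 and 129 CPM in ShhN IUE libraries 1, 2 and 3 and 51.8, 58.0 and 57.6 CPM in wild type. Every ShhN IUE library was above every wild-type library, and library 3, the one with high meningeal genes and high Shh, was well above the others. The means were 98.2 ± 27.0 and 55.8 ± 3.51 CPM, a log2 fold change of 0.81 ± 0.19 (interval 0.39 to 1.24, adjusted p = 0.0128). Without library 3 the log2 fold change was 0.58 (adjusted p = 0.0149), so the gene passed with and without it. Sox2ot, the noncoding gene that contains Sox2, had 1427, 367 and 480 counts in ShhN IUE and 406, 612 and 580 in wild type, and did not pass (0.63 ± 0.41, adjusted p = 0.264). Its highest library was library 1, whereas that of Sox2 was library 3.

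Sox3, the X-linked partner of Sox2 in the SOXB1 group, had 8.24, 9.79 and 11.0 CPM in ShhN IUE and 7.36, 6.04 and 5.22 CPM in wild type. The groups did not overlap, but the log2 fold change of 0.64 ± 0.21 (interval 0.15 to 1.13) just missed the threshold at an adjusted p of 0.0510. It passed under 8 of 17 alternatives, among them DESeq2 (adjusted p = 0.0337), limma-voom (0.0472) and the fit without wild-type library 1 (0.0410), over a range of adjusted p from 0.0274 to 0.131. Sox21 had 17.9, 23.0 and 18.1 CPM against 21.6, 20.2 and 22.1 CPM in wild type, and the groups overlapped. Its log2 fold change was -0.12 ± 0.14 (interval -0.45 to 0.22, adjusted p = 0.563).

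Lhx2 was at 195, 215 and 182 CPM in ShhN IUE and 175, 158 and 176 CPM in wild type. All 3 ShhN IUE libraries were above all 3 wild-type libraries, with a log2 fold change of 0.21 ± 0.10 (interval -0.01 to 0.44) that did not pass (adjusted p = 0.126). Emx1 was at 33.1, 38.4 and 30.2 CPM against 41.0, 29.4 and 41.4 CPM, overlapping wild type, with a log2 fold change of -0.14 ± 0.16 (interval -0.51 to 0.24, adjusted p = 0.553). Emx2 was at 8.90, 10.3 and 6.45 CPM against 8.71, 9.13 and 9.50 CPM. Its spread in ShhN IUE came from library 3, the lowest of the 6. The log2 fold change was -0.09 ± 0.21 (interval -0.58 to 0.40, adjusted p = 0.770) and 0.09 without that library. Thus 5 of the 8 genes lay fully above wild type, where 24.5% of all genes tested did, and 0 lay fully below, where 24.9% did.

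**Figure D1:**
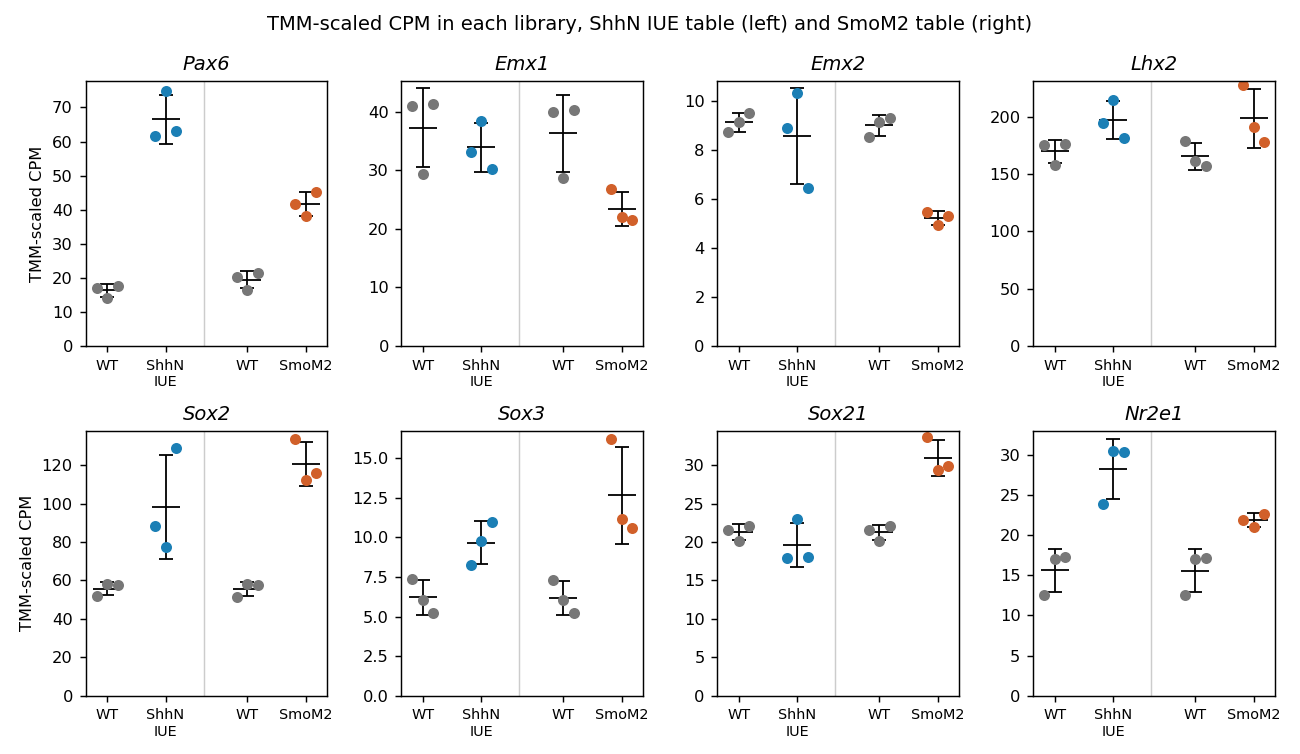
TMM-scaled CPM (y axis, from 0, a separate scale for each gene) in each library; points are libraries, long bars the mean and whiskers the SD of 3 libraries. Wild type is drawn for each table, ShhN IUE at the left and SmoM2 at the right of each panel: Pax6 lies above wild type in both groups, and Emx1 and Emx2 lie below wild type in SmoM2.

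In SmoM2 cortex the set split. Sox2, Pax6, Sox3 and Sox21 rose, by 2.17-fold, 2.14-fold, 2.04-fold and 1.46-fold, while the homeobox factors Emx2 and Emx1 fell and were 1.72-fold and 1.55-fold lower than in wild type. Nr2e1 and Lhx2 did not pass. The count was 4 of 8 risen, where 9.59% of the 16485 genes tested rose, and 2 of 8 fallen, where 9.29% fell. In either direction 6 of 8 passed, where 18.9% of all genes did. The median log2 fold change over the 8 was 0.52, and over all genes -0.0072. The wild-type libraries are the same as in the comparison above, so the comparisons share their controls.

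Sox2 had 134, 112 and 116 CPM in SmoM2 libraries 1, 2 and 3, against 51.5, 58.1 and 57.4 CPM in wild type. The SmoM2 libraries were close together and far above wild type. The means were 121 ± 11.4 and 55.7 ± 3.60 CPM, a log2 fold change of 1.12 ± 0.10 (interval 0.88 to 1.35, adjusted p = 0.000519). Sox2ot rose as well, by 1.21 ± 0.13 (adjusted p = 0.00103), from 193, 252 and 237 counts in wild type to 739, 651 and 654, although its wild-type counts in this table (682 in sum) were lower than in the other (1598).

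Sox3 had 16.2, 11.2 and 10.6 CPM in SmoM2 and 7.33, 6.05 and 5.20 CPM in wild type, with no overlap and with library 1 highest. The log2 fold change was 1.03 ± 0.22 (interval 0.53 to 1.53, adjusted p = 0.0147). When SmoM2 library 1 was left out it was 0.82 and just missed the threshold (adjusted p = 0.0515). Sox21, the SOXB2 factor, had 33.7, 29.3 and 29.9 CPM against 21.5, 20.2 and 22.0 CPM. All SmoM2 libraries were higher, with a log2 fold change of 0.54 ± 0.10 (interval 0.30 to 0.78, adjusted p = 0.00987).

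Pax6 had 41.7, 38.2 and 45.1 CPM in SmoM2 and 20.4, 16.6 and 21.4 CPM in wild type. The groups were well apart, with means of 41.7 ± 3.44 and 19.4 ± 2.55 CPM and a log2 fold change of 1.10 ± 0.13 (interval 0.81 to 1.39, adjusted p = 0.00120). Nr2e1 had 21.9, 21.0 and 22.7 CPM against 12.5, 17.0 and 17.2 CPM. It lay above wild type in all 3 libraries, but its log2 fold change of 0.49 ± 0.15 (interval 0.15 to 0.83) missed the threshold (adjusted p = 0.0530). It passed under 4 of 17 alternatives, over a range of adjusted p from 0.0252 to 0.170.

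Emx2 had 5.47, 4.91 and 5.29 CPM in SmoM2 and 8.52, 9.14 and 9.30 CPM in wild type. Both groups were tight and did not overlap. The means were 5.22 ± 0.283 and 8.99 ± 0.413 CPM, a log2 fold change of -0.78 ± 0.16 (interval -1.14 to -0.42, adjusted p = 0.0115). The call was lost without SmoM2 library 2 (-0.73, adjusted p = 0.0593) and without SmoM2 library 3 (-0.78, adjusted p = 0.0634). Its antisense neighbour Emx2os had 18, 21 and 45 counts against 21, 29 and 19 and did not pass in SmoM2 (-0.08 ± 0.39, adjusted p = 0.913). In ShhN IUE, where Emx2 did not pass, Emx2os rose by 0.94 ± 0.30 (adjusted p = 0.0412), with 36, 36 and 43 counts against 21, 29 and 19. These counts are low, and the adjusted p lies near the threshold.

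Emx1 had 26.8, 22.0 and 21.5 CPM in SmoM2 and 39.9, 28.7 and 40.3 CPM in wild type. The groups did not overlap, although wild-type library 2 came close to SmoM2 library 1. The log2 fold change was -0.63 ± 0.16 (interval -0.99 to -0.27, adjusted p = 0.0265). Without wild-type library 2 it was -0.78 (adjusted p = 0.00996). The call was lost without SmoM2 library 2 (-0.57, adjusted p = 0.0984), SmoM2 library 3 (-0.56, 0.114), wild-type library 1 (-0.56, 0.0635) or wild-type library 3 (-0.54, 0.0773), each with an adjusted p as its last value, and under a 1.2-fold minimum (0.0805).

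Lhx2 had 228, 191 and 178 CPM in SmoM2 and 179, 161 and 157 CPM in wild type. The groups overlapped by SmoM2 library 3 and wild-type library 1, and the log2 fold change of 0.26 ± 0.11 (interval 0.01 to 0.51) did not pass after adjustment (adjusted p = 0.131). Over the set, 5 of 8 genes lay fully above wild type, where 20.4% of all genes did, and 2 of 8 fully below, where 19.7% did.

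The authors' deposited table for ShhN IUE gives q-values of 1.76e-20 for Pax6, 0.000994 for Sox2 and 0.00416 for Nr2e1, and marks Pax6 alone of the set as up. The authors' deposited table for SmoM2 marks Sox2 (q = 5.62e-12), Pax6 (4.69e-08) and Sox3 (0.00184) as up. It lists Sox21, Emx2 and Emx1 with q-values of 0.0156, 0.0198 and 0.0221 and no mark in the authors' deposited table.

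The intervention groups were then compared directly, in a fit of all 9 libraries over the 12349 tested genes whose wild-type counts agreed between the tables. CPM in this fit are relative to those genes and so are higher than above. The agreement concerns the wild-type libraries only. The intervention groups differ in electroporation, in depth and in the table they come from, and these cannot be told apart from the kind of pathway activation. Sox21 was higher in SmoM2 than in ShhN IUE, at 47.0 ± 3.64 against 30.1 ± 4.44 CPM, a log2 fold change of 0.65 ± 0.12 (interval 0.37 to 0.92, adjusted p = 0.00736). Emx2 was lower, at 7.93 ± 0.436 against 13.1 ± 3.06 CPM (-0.72 ± 0.19, interval -1.15 to -0.30, adjusted p = 0.0280). Emx1 was lower too, at 35.6 ± 4.48 against 51.9 ± 6.52 CPM (-0.54 ± 0.16, interval -0.89 to -0.20, adjusted p = 0.0379). For each of these 3 genes the groups did not overlap. Thus 1 of the 7 genes tested was higher and 2 were lower, where 8.45% and 8.07% of all genes were, and 3 of 7 passed in either direction, where 16.5% did. Fully above ShhN IUE lay 1 of the 7 genes, where 20.4% of all genes did, and fully below lay 3 of 7, where 20.6% did.

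The difference in Sox21 passed under all 19 alternatives, with log2 fold changes of 0.58 to 0.78. Those in Emx1 and Emx2 were each lost under 7 of 19. For Emx1 these included the fits without ShhN IUE library 1 (-0.55, adjusted p = 0.106), ShhN IUE library 2 (-0.44, 0.104), SmoM2 library 2 (-0.50, 0.133) and SmoM2 library 3 (-0.48, 0.135). For Emx2 they included the fits without ShhN IUE library 1 (-0.68, adjusted p = 0.0971), ShhN IUE library 2 (-0.57, 0.0790), SmoM2 library 1 (-0.76, 0.0697), SmoM2 library 2 (-0.68, 0.104) and SmoM2 library 3 (-0.73, 0.0881).

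The other 4 genes did not pass. Nr2e1 had a log2 fold change of -0.38 ± 0.15 between SmoM2 and ShhN IUE (interval -0.70 to -0.06, adjusted p = 0.0970). Sox3 had 0.38 ± 0.21 (interval -0.08 to 0.84, adjusted p = 0.231). Sox2 had 0.29 ± 0.16 (interval -0.07 to 0.65, adjusted p = 0.242). Without ShhN IUE library 3, where Sox2 was highest, Sox2 was 0.52 higher in SmoM2 and passed (adjusted p = 0.0149). For Lhx2 the means were both 302 CPM and the interval of the difference ran from -0.24 to 0.24. Pax6 could not be tested in this fit, since its wild-type counts differed between the tables. Side by side, its log2 fold changes against wild type were 2.03 ± 0.14 in ShhN IUE and 1.10 ± 0.13 in SmoM2, each within its own table, and that difference was not tested.

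**Figure D2:**
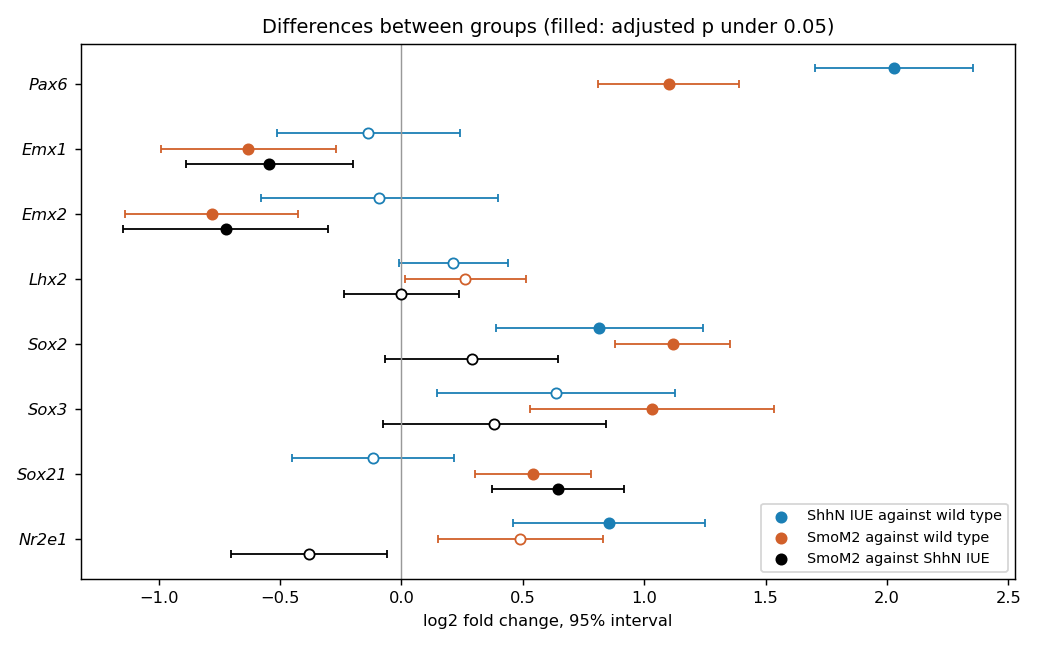
Log2 fold changes (x axis) with 95% intervals for each gene in the 3 comparisons; filled points have an adjusted p under 0.05, and Pax6 has no direct comparison. The intervals of Emx1 and Emx2 lie below 0 for SmoM2 against wild type and against ShhN IUE, while those for ShhN IUE against wild type include 0.

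Each factor was also set against other radial glia genes of the same library. The reference was the mean log2 CPM of Nes, Vim, Fabp7, Slc1a3, Hes1 and Hes5, which was 6.55, 6.58 and 6.86 in ShhN IUE libraries 1, 2 and 3 against 5.79, 6.20 and 5.58 in wild type, and 6.63, 6.48 and 6.56 in SmoM2 against 5.73, 6.09 and 5.67. The reference mixes genes that rose with genes that did not pass, which sets the size of the relative differences. In ShhN IUE, Nes, Vim, Slc1a3 and Hes5 rose, while Fabp7 (0.13, adjusted p = 0.660) and Hes1 (-0.15, 0.781) did not pass. In SmoM2, Nes, Vim and Slc1a3 rose, while Fabp7 (0.0003, adjusted p = 0.999), Hes1 (0.42, 0.160) and Hes5 (0.62, 0.186) did not pass. The difference between groups in log2 CPM minus this reference was examined with an exact two-sided permutation test, whose smallest possible p with 3 against 3 libraries is 0.1, so that none could pass 0.05. Over the 16 tests the smallest adjusted p was 0.2.

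Relative to the reference, Pax6 was 1.19 higher in ShhN IUE than in wild type, with no overlap (exact p = 0.1). Emx1, Emx2 and Sox21 were lower, with log2 differences of -0.93, -0.92 and -0.93, again with no overlap (exact p = 0.1 each). For Emx1 the separation was narrow: the highest ShhN IUE library was at -1.303 and the lowest wild-type library at -1.296. Sox2, Sox3 and Nr2e1 differed by -0.03, -0.20 and 0.03 (exact p of 1, 0.4 and 1), and Lhx2 by -0.60 (exact p = 0.2). Pax6 therefore lay above wild type on this scale as well, while the differences of Sox2 and Nr2e1 were about as large as that of the reference.

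In SmoM2, Emx2, Emx1 and Lhx2 were lower relative to the reference, with log2 differences of -1.45, -1.33 and -0.47, all without overlap (exact p = 0.1 each). Sox2 was 0.39 higher without overlap (exact p = 0.1). Pax6 (0.36), Sox3 (0.24), Sox21 (-0.19) and Nr2e1 (-0.23) overlapped wild type (exact p of 0.2, 0.4, 0.4 and 0.2). The part of cell composition in these differences was not tested.

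**Figure D3:**
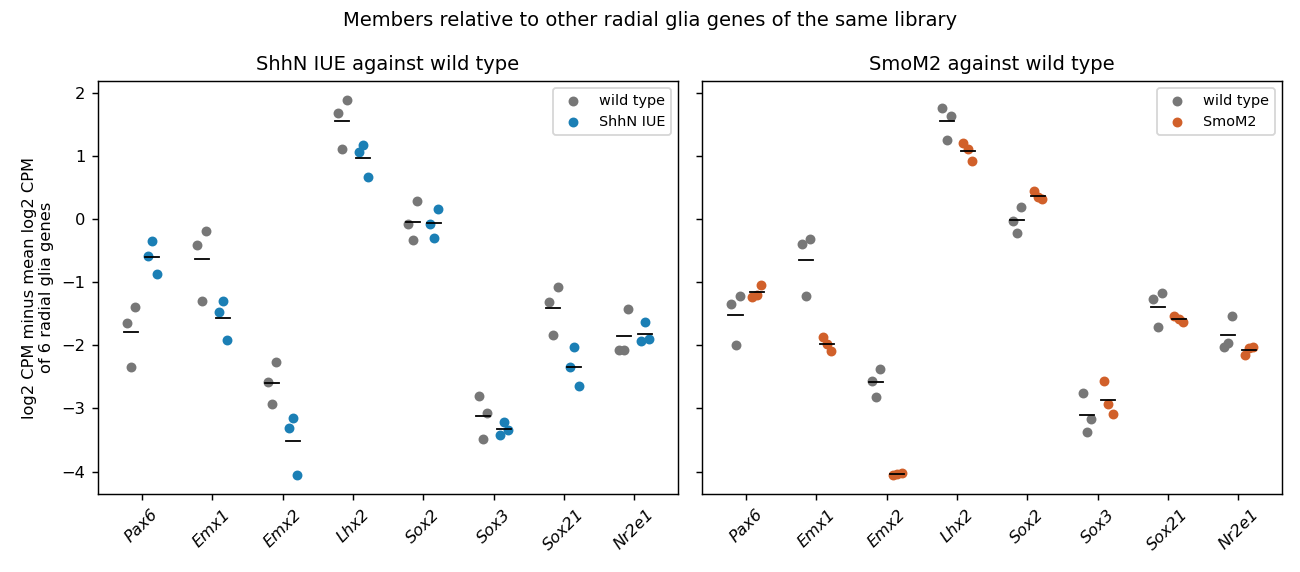
Log2 CPM of each gene minus the mean log2 CPM of 6 radial glia genes in the same library (y axis); points are libraries and bars are group means. Emx1 and Emx2 lie below wild type in both panels, and Pax6 lies above wild type without overlap in ShhN IUE.

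The balance between factors was also read as a ratio of counts within a library, a description chosen after the values were seen and given without a test. Sox2 had 1.26, 1.97 and 1.39 counts for each Emx1 count in wild-type libraries 1, 2 and 3 of the ShhN IUE table. In ShhN IUE libraries 1, 2 and 3 this ratio was 2.67, 2.02 and 4.26, so that library 2 was barely above wild-type library 2. In SmoM2 it was 4.99, 5.11 and 5.39, against 1.29, 2.02 and 1.42 in the wild type of that table. Pax6 had 0.417, 0.477 and 0.429 counts for each Emx1 count in wild type, and 1.87, 1.95 and 2.08 in ShhN IUE. In SmoM2 the Pax6 ratio was 1.56, 1.74 and 2.09, against 0.511, 0.577 and 0.531. The ratio of Emx1 to Emx2 counts ranged from 3.72 to 4.69 in ShhN IUE, against 3.22 to 4.71 in the wild type of that table, and from 4.07 to 4.90 in SmoM2, against 3.14 to 4.68, overlapping in both comparisons.

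Levels can be compared between genes only per length. By the deposited FPKM, wild-type cortex (ShhN IUE table) held most of Sox2, at 26.7 ± 2.30, and Lhx2, at 25.0 ± 0.899, which overlapped. Emx1 followed at 13.0 ± 2.07, then Sox21 at 5.52 ± 0.162. Nr2e1, at 3.73 ± 0.701, and Sox3, at 2.96 ± 0.477, overlapped in their spread. Emx2 was at 1.83 ± 0.107 and Pax6 lowest at 0.707 ± 0.0706. The order depends in part on the length used: the FPKM of Pax6 imply a length of 22635 bases, where the exons of GENCODE M21 cover 11694 and the longest transcript 4427. With CPM per kilobase of those exons, Lhx2 came first, at 38.7 ± 2.31, before Sox2, at 27.1 ± 1.70. Emx2 and Sox3 then had overlapping levels, at 3.04 ± 0.132 and 3.01 ± 0.524, and Pax6 was lowest at 1.39 ± 0.169. Per kilobase of the longest transcript Pax6 was not lowest: it had 3.68 CPM, above Emx2 at 3.13 and Sox3 at 3.01. The place of Pax6 in the order is therefore set by the length taken for it.

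In the intervention groups the FPKM order changed in its lower part. In ShhN IUE cortex it ran from Sox2 (48.6 ± 14.5) over Lhx2 (29.9 ± 2.05), Emx1 (12.2 ± 1.30), Nr2e1 (6.95 ± 0.993), Sox21 (5.24 ± 0.710) and Sox3 (4.75 ± 0.755) to Pax6 (2.98 ± 0.293) and Emx2 (1.76 ± 0.373). Among these ShhN IUE levels, Nr2e1 overlapped Sox21, and Sox21 overlapped Sox3. In SmoM2 the order ran from Sox2 (59.2 ± 5.89) over Lhx2 (30.0 ± 3.98) to Emx1 (8.38 ± 1.07) and Sox21 (8.22 ± 0.661), which overlapped. Sox3 (6.18 ± 1.52) and Nr2e1 (5.34 ± 0.242) overlapped as well, and Pax6 (1.86 ± 0.165) and Emx2 (1.07 ± 0.0654) came last. Pax6 thus had a higher FPKM than Emx2 in both interventions and a lower FPKM in wild type. That switch depends on the length: per kilobase of the longest transcript Pax6 was above Emx2 in wild type too, at 3.68 against 3.13 CPM in the ShhN IUE table and 4.39 against 3.08 in the SmoM2 table.

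**Figure D4:**
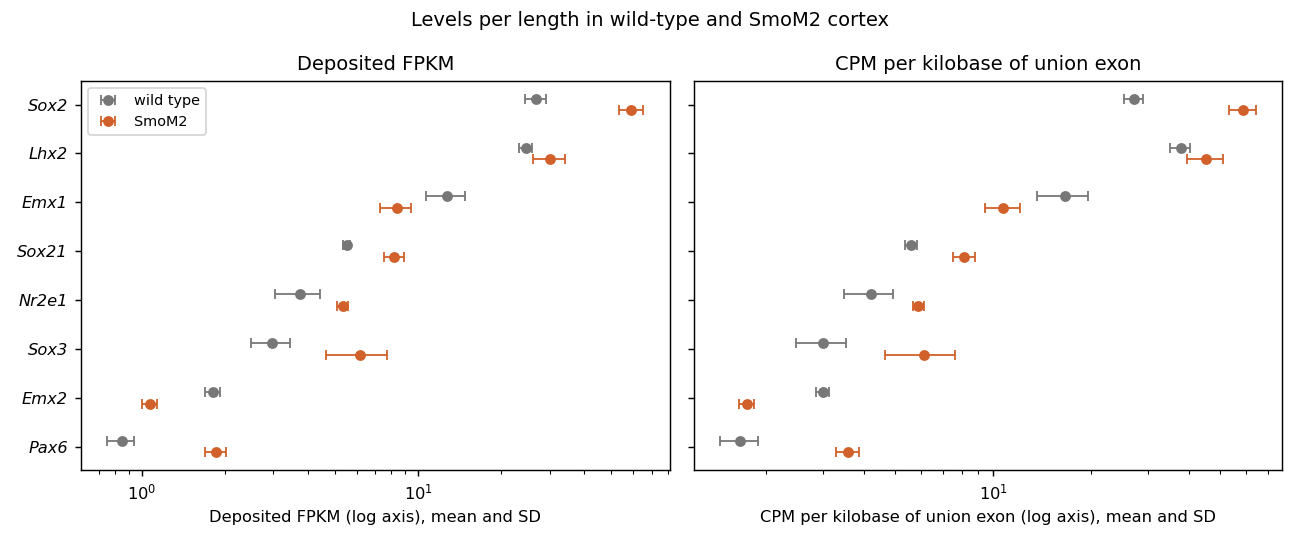
Mean level and SD of 3 libraries per gene in wild-type and SmoM2 cortex (SmoM2 table), as deposited FPKM at the left and as CPM per kilobase of union exon at the right, both on log axes. Sox2 and Lhx2 are the highest on both scales in wild type, and their order changes between the scales.

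Among the other SOX genes, 4 of 9 tested rose and 2 fell in ShhN IUE, and 2 of 9 rose and 1 fell in SmoM2, with medians of 0.59 and 0.16. Of all genes, 16.1% rose and 17.2% fell in ShhN IUE, and 9.59% rose and 9.29% fell in SmoM2. Sox1, the third SOXB1 gene, rose in both: by 0.90 ± 0.20 in ShhN IUE (adjusted p = 0.0118) and by 1.77 ± 0.12 in SmoM2 (adjusted p = 0.000159). It was 0.85 ± 0.18 higher in SmoM2 than in ShhN IUE (adjusted p = 0.0108). Sox10, which marks the oligodendrocyte lineage, rose by 1.09 and 1.04 (adjusted p of 0.00944 and 0.00527). Sox9, a radial glia and astrocyte factor, rose by 0.92 in ShhN IUE (adjusted p = 0.0155), and its 0.57 in SmoM2 did not pass (0.0721). Sox5, a factor of deep-layer neurons, fell by 0.61 in ShhN IUE (adjusted p = 0.0194) and by 1.17 in SmoM2 (0.00028). Leaving out single libraries moved the fallen count in ShhN IUE between 0 and 3 and the risen count in SmoM2 between 2 and 4. With ShhN IUE library 2, wild-type library 1 or wild-type library 3 left out the fallen count in ShhN IUE was 0, and with ShhN IUE library 1 or 3 left out it was 1. The risen count in SmoM2 was 4 without wild-type library 3, and the fallen count was 2 without wild-type library 2.

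In a list of partners of the 8 factors, 5 of 16 tested rose and 3 fell in ShhN IUE, where 16.1% and 17.2% of all genes did. In SmoM2, 4 rose and 2 fell, where 9.59% and 9.29% did. The list holds LMO and LDB proteins of LIM-homeobox complexes, and POU factors and the chromatin remodeller Chd7 that work with Sox2. It also holds Kdm1a, Atn1, Pax3, Pax7 and the noncoding genes Emx2os, Sox2ot and Pax6os1. Those risen in ShhN IUE were Chd7, Pou3f4, Ldb1, Emx2os and a low entry of Atn1 (3.62 against 1.28 CPM). The main entry of Atn1, at 411 against 358 CPM, did not pass there (0.20, adjusted p = 0.145). Chd7 rose by 1.77 ± 0.18 (adjusted p = 0.000863) and 1.37 ± 0.12 (0.000371). Among the POU factors, Pou3f4 rose by 1.09 (adjusted p = 0.0111) and 1.32 (0.00541). In ShhN IUE, Pou3f1 fell (-0.83, adjusted p = 0.00935), and Pou3f2 (-0.29) and Pou3f3 (-0.33) did not pass. Lmo3, a LIM-only protein, fell by 1.36 in ShhN IUE (adjusted p = 0.000866) and by 0.91 in SmoM2 (0.00955). Its wild-type counts summed to 15145 in the ShhN IUE table and 9622 in the SmoM2 table, so the sizes are not directly comparable. Ldb1, the adaptor that LIM-homeobox proteins such as Lhx2 bind, rose by 0.39 in ShhN IUE (adjusted p = 0.0280), where the related Ldb2 fell by 0.54 (0.00886). In SmoM2 neither passed, with 0.18 and -0.11. The risen count in ShhN IUE was 2 when ShhN IUE library 1, wild-type library 1 or wild-type library 2 was left out, and 3 when ShhN IUE library 2 or 3 was. The fallen count was 5 in ShhN IUE without wild-type library 2, and 1 in SmoM2 without any of the SmoM2 libraries or wild-type library 1.

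Of the other progenitor transcription factors, 5 of 17 rose and 1 fell in ShhN IUE (median 0.07), where 16.1% and 17.2% of all genes did. In SmoM2, 2 of 17 rose and 0 fell (median 0.11, edgeR), where 9.59% and 9.29% of all genes did. The risen count in SmoM2 thus lay near the share of all genes. Tfap2c, a factor of basal progenitors, rose by 1.15 in ShhN IUE (adjusted p = 0.00751) and was at 0.27 in SmoM2 without passing (0.506). Gli3, whose repressor form patterns the dorsal telencephalon, did not pass against wild type, at 0.18 ± 0.15 in ShhN IUE (adjusted p = 0.382) and -0.43 ± 0.15 in SmoM2 (0.0849). It was lower in SmoM2 than in ShhN IUE (-0.65 ± 0.14, adjusted p = 0.0131), the same direction as Emx1 and Emx2. The single fall in ShhN IUE, that of Nr2f2 (-0.88, adjusted p = 0.0433), was lost when any of ShhN IUE library 1, ShhN IUE library 2, wild-type library 2 and wild-type library 3 was left out, and 2 genes fell when wild-type library 1 was. The risen count in SmoM2 was 4 without wild-type library 2.

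Of the radial glia surface and structural genes, 6 of 12 rose and 0 fell in each comparison with edgeR. Of all genes, 16.1% rose in ShhN IUE and 9.59% in SmoM2. DESeq2, and the fit that left out wild-type library 3, each called 1 fall in SmoM2. Nes, the filament protein nestin, rose by 1.62 ± 0.14 and 0.93 ± 0.12 (adjusted p of 0.000528 and 0.00189). Vim, vimentin, rose by 1.16 and 1.00 (0.0134 and 0.00158), and Notch1, the receptor that keeps radial glia undifferentiated, by 1.40 and 0.95 (0.000606 and 0.000588). Slc1a3, a glutamate transporter, rose by 0.82 and 1.26 (0.0339 and 0.000738). Nes and Notch1 were lower in SmoM2 than in ShhN IUE (-0.64 and -0.47, adjusted p of 0.00899 and 0.0164), and neither Sox2 nor Sox3 passed in that comparison. Cell cycle genes rose in 9 of 10 and 10 of 10 cases, with Mki67 up by 1.74 and 1.56 (adjusted p of 0.000517 and 0.000954). The part of the cell cycle and radial glia genes in the changes of the 8 factors was not tested, and the reference above holds no cell cycle gene.

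Ventral progenitor factors rose in 8 of 10 cases in each comparison, with medians of 1.43 and 1.54, where 16.1% and 9.59% of all genes rose. With single libraries left out, their risen count was 6 to 9 in ShhN IUE and stayed at 8 in SmoM2. Without ShhN IUE library 3, 1 of them fell in ShhN IUE. Gsx2, the homeobox factor of the lateral ganglionic eminence that opposes Pax6 at the border between dorsal and ventral progenitors, rose by 2.42 in ShhN IUE (adjusted p = 0.00099) and 1.56 in SmoM2 (0.00438). It was lower in SmoM2 than in ShhN IUE (-0.92, adjusted p = 0.0147). Olfactory bulb interneuron genes, a lineage that also uses Pax6, rose in 5 of 10 and 7 of 9 cases. Among proneural and pyramidal lineage factors, 3 of 9 rose and 1 fell in ShhN IUE, and 1 rose and 3 fell in SmoM2. Of all genes, 17.2% fell in ShhN IUE and 9.29% in SmoM2. Neurog2, the proneural factor, rose by 1.195 ± 0.263 in ShhN IUE (adjusted p = 0.0113) and was at -0.25 ± 0.22 in SmoM2 (0.467). Eomes, the factor of pyramidal intermediate progenitors, was at 0.76 ± 0.42 in ShhN IUE (0.192) and fell by 1.45 in SmoM2 (SE 0.25, adjusted p = 0.00623). Tbr1, of deep-layer neurons, fell by 0.81 and 1.00 (0.0114 and 0.000655). Neurog2 and Eomes were both lower in SmoM2 than in ShhN IUE, by log2 differences of -1.47 and -2.17 (adjusted p of 0.00497 and 0.00703), alongside Emx1 and Emx2. Without wild-type library 2 the fallen count in ShhN IUE was 2, and without wild-type library 1 the risen count in SmoM2 was 3.

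Oligodendrocyte lineage genes rose in 5 of 6 cases in each comparison, where 16.1% of all genes rose in ShhN IUE and 9.59% in SmoM2. Their summed levels were 459 to 578 CPM in ShhN IUE against 279 to 316 in wild type. In SmoM2 they were 527 to 582 against 278 to 317. The summed levels of 6 genes of choroid plexus and ependyma were low but did not overlap wild type, at 17.8 to 44.1 CPM in ShhN IUE against 5.24 to 9.91, and at 14.5 to 17.8 in SmoM2 against 5.22 to 9.83. The sums of 6 astrocyte genes overlapped wild type, at 182 to 289 CPM in ShhN IUE against 189 to 366 and at 276 to 328 in SmoM2 against 212 to 371. Of 8 neuronal genes, 4 fell and 1 rose in ShhN IUE, where 17.2% and 16.1% of all genes did. Snap25 (-0.60), Gap43 (-0.57), Syt1 (-0.38) and Dcx (-0.37) fell and Tubb3 (0.44) rose. In SmoM2, Snap25 (-0.62) and Gap43 (-0.35) fell and 0 rose, with edgeR, where 9.29% and 9.59% of all genes did. The wild-type counts of Snap25 summed to 14245 in the ShhN IUE table and 8458 in the SmoM2 table, and those of Dcx to 115587 and 59028. The fallen count was 2 in ShhN IUE when library 3 was left out, and 1 in SmoM2 when any SmoM2 library or wild-type library 1 or 2 was. The risen count in ShhN IUE was 0 when any of 4 libraries (1 and 2 of ShhN IUE, 2 and 3 of wild type) was left out, and 2 when wild-type library 1 was. Summed over the 8 genes, the levels overlapped wild type, at 7415 to 8565 CPM against 7411 to 9063 and at 6511 to 6982 against 6478 to 7527. Genes of the cortical hem and antihem, which flank the dorsal telencephalon, had sums of 19.9 to 22.1 CPM in ShhN IUE against 18.4 to 25.4 in wild type, and of 23.7 to 25.2 in SmoM2 against 17.7 to 23.2. Their part in the values of the 8 factors was not tested.

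The genes whose levels over the 9 libraries were most like each factor were searched among 8312 genes with agreeing wild-type counts and a mean of at least 5 CPM. The measure was Pearson's r of log2 CPM, given as a description, since the 9 libraries share 3 groups and the group differences enter every r. Sox2 was closest to Ramp1 (0.992) and Spcs2 (0.988), and Sox3 to Olig1 (0.974) and Tenm2 (0.962). Sox21 was closest to Tbc1d5 (0.980) and Rab31 (0.963), and Nr2e1 to Leng1 (0.979) and Prkd2 (0.971). Emx1 was closest to Tmem132a (0.968) and Cadm4 (0.966), Emx2 to Lrrc75b (0.959) and Thbs1 (0.955), and Lhx2 to Psmg1 (0.964) and Ubl7 (0.949). No gene of the 8 was among the 2 genes most like another of them. Pax6 was not searched, for the reason given above.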

How the data were processed

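RNA-seq tables of 9 cortex libraries were analysed. The authors deposited 2 tables, each with the read count and FPKM of every gene and library and, per the file headers, a p-value and q-value of the authors' test. Per the submitters' processing notes the tools were HISAT2, StringTie and edgeR, without versions, and the builds are given as mm10 and GRCm38.p4. The sources used here do not give multi-mapping or strand settings. Groups and replicate numbers are from the sample titles.

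Counts were tested over each whole table in R 4.3.3 with edgeR 4.0.16 (quasi-likelihood F test, TMM scaling, default expression filter by group), with Benjamini-Hochberg adjustment over all genes tested and a threshold of 0.05. Fold changes are log2. SE is the log2 fold change divided by the square root of F, and intervals use the t distribution. CPM are TMM-scaled, and log2 CPM adds 0.5 to the CPM. SmoM2 and ShhN IUE were compared over 16195 genes whose summed wild-type counts (5 added) agreed within 0.1 log2 between tables, before filtering, with wild-type counts averaged and rounded. The functions were tested on simulated data.

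Named genes are the 8 factors, from each list up to 4 genes by smallest adjusted p (some left out), overlapping genes, the 2 likest genes of each factor, and Shh, Smo, Gli1 and Ptch1. Some, such as Gli3, Neurog2 and Ldb1, are named beside this rule and were chosen after their values were seen. The members and lists were chosen with earlier results of these data known. Several lists share genes, and 1 list gene is counted but not reported by name here. Alternatives were other scalings, filters, tools (DESeq2 1.42.0, limma 3.58.1, on counts by voom and on log2 of FPKM plus 1), a replicate block, a 1.2-fold minimum, other sets of libraries and each library left out. Between replicates of a group the chi-square of counts, divided by its degrees of freedom, was 17.7 to 36.9, so none was taken as a repeated deposit.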

Additional observations from a re-analysis of the deposited data

Results flagged for a closer look

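Of the 7 factors tested directly (Pax6 was not), 3 differed between the 2 interventions by the edgeR test, where 16.5% of all genes did. The interventions also differ in electroporation, depth and table, which cannot be told apart from the kind of pathway activation. The Emx1 and Emx2 calls were each lost under 7 of 19 alternatives. Sox21 was higher in SmoM2 than in ShhN IUE (log2 fold change 0.65), with all SmoM2 libraries above all ShhN IUE libraries. Emx1 (-0.54) and Emx2 (-0.72) were lower in SmoM2, with all SmoM2 libraries below all ShhN IUE libraries. ShhN IUE library 3 had the lowest Emx2 of its group, and without it the Emx2 difference was -0.90 (adjusted p = 0.00843). The meningeal genes, high in that library, did not pass in either comparison with wild type. In the ShhN IUE comparison 4 of 6 fell without that library, where 2257 of the 16510 genes tested fell. In the direct comparison 5 were then higher in SmoM2, where 1026 of the 12616 genes tested were.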

How the results depend on the processing

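Pax6, Sox2 and Nr2e1 in ShhN IUE and Pax6, Sox2 and Sox21 in SmoM2 kept direction and call under every alternative run for them (15 to 17 each). The risen count in ShhN IUE was 5 with limma on FPKM, where Sox3 and Lhx2 (adjusted p = 0.0430) passed too. With a 1.2-fold minimum, 1644 genes rose and 1829 fell in ShhN IUE, 884 and 815 in SmoM2, and 403 and 341 in SmoM2 against ShhN IUE. Of the 8 factors, 1 then fell in SmoM2 and 0 were lower in SmoM2 than in ShhN IUE, and without a filter 1 was lower. Leaving out a library gave 1567 to 2299 risen and 1684 to 2325 fallen genes in ShhN IUE, 733 to 1598 and 601 to 1412 in SmoM2, and 483 to 1259 and 351 to 1080 in the direct comparison. The lowest came without ShhN IUE library 1, SmoM2 library 3 and SmoM2 library 2. Of the 8 factors, 0 to 2 fell in SmoM2, 1 to 2 were higher and 0 to 2 lower in the direct comparison. The cause was not tested, though fewer libraries were fitted.

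With the replicate block, 0 factors were lower in SmoM2 than in ShhN IUE (Emx1 adjusted p = 0.0599, Emx2 0.0585). Genes risen and fallen were 1904 and 2058 (ShhN IUE), 1268 and 1200 (SmoM2), and 802 and 697 (direct). Same-numbered libraries deviated together with r of 0.27, -0.32 and -0.10 in the ShhN IUE table and -0.10, -0.16 and 0.05 in the SmoM2 table, so the numbers were not taken to pair the samples.

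Signs turned for small values only. Emx2 in ShhN IUE was -0.24 to 0.0861 over left-out libraries, above 0 without ShhN IUE library 3. Lhx2 in the direct comparison was 0.0199 without a filter, 0.00229 at a tolerance of 0.2, and -0.11 to 0.0775 over left-out libraries. Relative to the radial glia reference, Sox2 in ShhN IUE was -0.17 to 0.13 over left-out libraries. Nr2e1 was -0.0758 to 0.25 over them, -0.0687 with a pseudocount of 5 and -0.10 without Hes1 and Hes5, and Sox3 in SmoM2 was -0.00867 with that pseudocount. Levels per kilobase of exon were 1.39 for Pax6, 17.1 for Emx1, 3.04 for Emx2 and 38.7 CPM for Lhx2. The deposited counts behind the factors ranged from 95 for Sox3 to 6202 for Lhx2 in a library.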
